A study of Mus musculus with 5 samples.

Results

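Gfi1 and Lsd1 were found together at 2017 sites that lie inside introns, at least 5 kb from any known transcription start site (TSS), in mouse medulloblastoma. These intronic distal sites are 5.48% of the 36836 Gfi1 peaks of the first tumor. A peak was a member when it overlapped, by at least 1 bp, a peak of each of the other 3 libraries, when its nearest edge was 5 kb or more from every annotated TSS, and when its midpoint fell in a gene body but in no annotated exon. Of all Gfi1 peaks of that tumor, 18906 were found in all 4 libraries and 11692 were distal, and 3893 were both. The sites were thus chosen by the presence of a peak in each library, so that presence is not a finding, and the scores of the peaks are given as a description.

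The tumors, called MG, grow from neural stem cells (Prominin1+ lin-) of the neonatal C57BL/6 cerebellum that were infected with retroviruses encoding Myc (a stabilised form) and Gfi1 and transplanted into the cerebella of NSG mice, which lack lymphocytes. Chromatin of 2 such tumors, numbered 39 (replicate 1) and 41 (replicate 2), was immunoprecipitated with an antibody to Gfi1 and with an antibody to Lsd1, giving 1 library per tumor and factor. Both tumors carry the same pair of retroviral genes, Gfi1 is supplied by the virus, and no tumor without Gfi1 was part of the comparison. The input control is described as a pool of MGB tumors and was not analysed here. Peak lists hold no expression values, so the identity of the tissue was not checked against marker genes, and they hold no read counts, so the depth behind a single peak is unknown.

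Gfi1 is a zinc finger repressor whose SNAG domain binds Lsd1. Lsd1 (Kdm1a) is a histone demethylase that takes methyl groups off lysine 4 of histone H3, a mark carried by enhancers and promoters, and it works in a complex with the corepressor CoREST. Enhancers often lie in introns, where they can act on the gene that holds them or on another gene nearby. The DNA word that Gfi1 recognises is built around AATC, and the factors that commonly occupy neural enhancers, such as NFI proteins, Sox proteins, homeodomain proteins and E-box binding bHLH proteins, each have short words of their own.

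The sequences that follow show what these sites look like, in the GRCm38 (mm10) reference genome and 5′ to 3′ on the strand named. The word AATCACNGC, the stricter of the forms searched for Gfi1, occurred within the central 300 bp of 7 of the 2017 sites (0.347%, exact 95% interval 0.140 to 0.714), against 0.828% of the windows of all Gfi1 replicate 1 peaks. The windows around it at the 5 sites of highest score rank among these are given so that the word can be seen in its setting, with the match in capitals.
Fsip1, chr2:118204056-118204154, minus strand: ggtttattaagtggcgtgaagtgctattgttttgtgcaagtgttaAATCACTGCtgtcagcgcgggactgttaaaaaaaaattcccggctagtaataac
F630040K05Rik, chr17:45746475-45746573, minus strand: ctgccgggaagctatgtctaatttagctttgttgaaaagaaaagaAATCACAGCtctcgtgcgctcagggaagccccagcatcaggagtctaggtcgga
Notch1, chr2:26495857-26495955, plus strand: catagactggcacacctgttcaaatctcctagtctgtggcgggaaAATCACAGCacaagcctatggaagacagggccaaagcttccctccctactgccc
Elovl6, chr3:129612932-129613030, minus strand: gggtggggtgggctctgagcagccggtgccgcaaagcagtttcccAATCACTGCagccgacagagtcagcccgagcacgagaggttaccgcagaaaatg
Pex14, chr4:149049673-149049771, plus strand: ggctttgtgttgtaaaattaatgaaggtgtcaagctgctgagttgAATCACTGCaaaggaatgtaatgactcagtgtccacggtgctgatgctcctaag
These windows lie in introns of Fsip1 (intron 10), F630040K05Rik (intron 1), Notch1 (intron 2), Elovl6 (intron 3) and Pex14 (intron 2), with introns counted from the 5′ end of the longest coding transcript, or of the longest transcript where a gene has no coding one.

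CAGCACC and GGACAG with 2 bases between them, the core of the element bound by REST, were in the centre of 3 sites. That is 0.149% (0.0307 to 0.434), an interval that holds the 0.0652% of all Gfi1 replicate 1 peaks. REST is the neuronal gene silencer after which CoREST is named, and the matches are shown in capitals for that reason.
Macrod1, chr19:7142213-7142277, plus strand: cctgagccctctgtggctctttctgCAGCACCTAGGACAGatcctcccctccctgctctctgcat
Phf21b, chr15:84829574-84829638, minus strand: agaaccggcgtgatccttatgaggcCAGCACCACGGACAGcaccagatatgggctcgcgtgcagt
Crhr2, chr6:55108484-55108548, plus strand: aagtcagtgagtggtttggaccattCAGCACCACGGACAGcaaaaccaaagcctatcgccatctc
The full palindrome of the NFI factors, TTGGC and GCCAA with 5 bases between them, was in the centre of 4 sites and is again in capitals. That is 0.198% (0.0541 to 0.507), an interval that holds the 0.0652% of all Gfi1 replicate 1 peaks. Intronic distal peaks not found in all libraries had it at 0.138%.
Gucd1, chr10:75374074-75374138, plus strand: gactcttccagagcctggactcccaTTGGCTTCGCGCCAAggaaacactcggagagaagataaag
AC110562.2, chr17:46073996-46074060, plus strand: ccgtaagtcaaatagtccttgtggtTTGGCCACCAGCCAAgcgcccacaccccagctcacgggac
Shb, chr4:45513854-45513918, plus strand: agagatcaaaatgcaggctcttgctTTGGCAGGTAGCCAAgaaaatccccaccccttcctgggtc
Slc6a2, chr8:92973076-92973140, plus strand: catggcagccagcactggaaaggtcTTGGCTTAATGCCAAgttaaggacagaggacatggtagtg
The highest ranked site with at least 3 NFI cores (TTGGCA or its reverse complement), in Pqlc2, is printed whole because this word is the subject of a comparison made further on. Its 300 central bases carry 3 matches, in capitals.
Pqlc2, chr4:139298155-139298454, plus strand: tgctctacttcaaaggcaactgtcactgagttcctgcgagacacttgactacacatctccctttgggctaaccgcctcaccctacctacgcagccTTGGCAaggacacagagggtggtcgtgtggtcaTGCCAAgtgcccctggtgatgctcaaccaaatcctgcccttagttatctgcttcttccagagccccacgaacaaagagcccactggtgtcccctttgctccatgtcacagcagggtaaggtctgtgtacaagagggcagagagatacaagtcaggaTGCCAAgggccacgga
The strongest site of Nfia, itself an NFI gene, is printed because it holds the words of 3 factors side by side. A Gfi1 word AATCAGCGC, an NFI core on the minus strand and the E-box CACGTG, which Myc can bind, are in capitals in that order, and the window holds 24 CpG dinucleotides.
Nfia, chr4:97868818-97869117, plus strand: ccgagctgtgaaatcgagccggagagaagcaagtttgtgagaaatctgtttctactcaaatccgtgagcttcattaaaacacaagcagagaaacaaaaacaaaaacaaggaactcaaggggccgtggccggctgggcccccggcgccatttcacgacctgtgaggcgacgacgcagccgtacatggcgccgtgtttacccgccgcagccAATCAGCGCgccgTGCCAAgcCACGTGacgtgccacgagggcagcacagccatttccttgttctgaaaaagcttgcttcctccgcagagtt
The highest site of Arid1b, the gene with the most sites, is shown as an example with no Gfi1 word. Its capitals mark a Sox word (ACAATG) and a pair of E-boxes of the CAGNTG form.
Arid1b, chr17:5322612-5322911, plus strand: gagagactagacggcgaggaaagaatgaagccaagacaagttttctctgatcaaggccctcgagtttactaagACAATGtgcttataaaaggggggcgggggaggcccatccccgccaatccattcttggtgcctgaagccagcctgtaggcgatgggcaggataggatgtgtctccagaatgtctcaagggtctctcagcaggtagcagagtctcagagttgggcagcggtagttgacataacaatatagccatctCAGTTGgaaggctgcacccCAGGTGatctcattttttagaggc

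Each peak carries a score that the authors deposited. Scores ran from 50 upwards and many of the highest share the value 3100, and their definition is not given in the sources used here. They were therefore compared as percentiles within each library, where 100 is the top of the list. The intronic distal sites stood near the middle of the Gfi1 lists and somewhat above the middle of the Lsd1 lists. Their median percentile was 51.2 in Gfi1 replicate 1, 45.6 in Gfi1 replicate 2, 59.3 in Lsd1 replicate 1 and 57.9 in Lsd1 replicate 2. Over the 2 tumors this came to 48.4 ± 3.96 (SD, n = 2) for Gfi1 and 58.6 ± 0.997 (SD, n = 2) for Lsd1. The median scores behind them were 184, 146, 305 and 297 in the same order. Peaks found in all libraries within 1000 bp of a TSS, of which there were 12690, had medians of 81.9, 72.5, 77.7 and 80.7. The 1638 intergenic distal peaks found in all libraries had 54.5, 46.7, 60.1 and 57.3, close to the intronic ones in every library. Over all Gfi1 replicate 1 peaks, counted in each library where they had a partner, the medians were 50, 61.0, 64.9 and 65.3. Outside Gfi1 replicate 1 the intronic distal sites thus ranked below Gfi1 peaks in general, in the Lsd1 lists too.

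**Figure D1:**
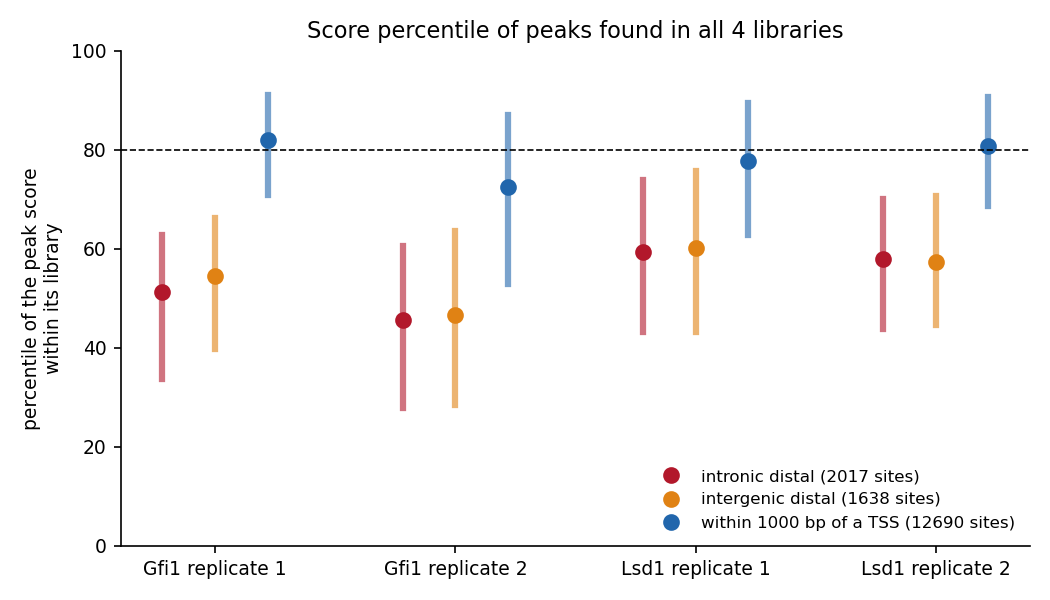
Percentile of the peak score within its library (y axis) for each of the 4 libraries (x axis), with points for medians and bars for the middle 50% of the sites. Intronic distal and intergenic distal sites sit between medians of 45.6 and 60.1, and peaks within 1000 bp of a TSS between 72.5 and 81.9, with the dashed line at the upper 20% limit.

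Few of the sites were among the strongest peaks of a list. The upper 20% of the score held 84 of the 2017 sites in Gfi1 replicate 1 (4.16%), 157 in Gfi1 replicate 2 (7.78%), 339 in Lsd1 replicate 1 (16.8%) and 252 in Lsd1 replicate 2 (12.49%), where the lists as a whole have 20% by construction. The upper 20% of all 4 lists held 41 sites, 2.03% of the members (95% exact binomial interval 1.46 to 2.75, counting error only), against 10.3% of all Gfi1 replicate 1 peaks. A total of 1561 sites (77.4%) were in the upper 20% of no list, against 70.6% of all Gfi1 replicate 1 peaks and 76.9% of intergenic distal ones. High-confidence Gfi1 peaks, in the upper 20% in both tumors with 50% of their length shared, made up 47 of the sites (2.33%), against 11.9% of all Gfi1 replicate 1 peaks, and 30 of these 47 also overlapped a high-confidence Lsd1 peak. A larger number, 169 sites (8.38%), overlapped a high-confidence Lsd1 peak, against 17.0% of all Gfi1 replicate 1 peaks and 10.6% of intergenic distal ones. High-confidence peaks were ranked here by the deposited score, and 4386 Gfi1 replicate 1 peaks met the rule for Gfi1. The rule is a reading of the study's wording, and the result is not the study's own set. The study reports a larger Gfi1 set, so these shares cannot be read as shares of its high-confidence peaks. Whether its cut-off or its ranking differed was not tested.

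The Lsd1 rank exceeded the Gfi1 rank at most sites of each tumor, with Gfi1 higher at 32.5% of them in tumor 39 and 28.6% in tumor 41. The median of the Gfi1 percentile minus the Lsd1 percentile was -8.89 in tumor 39 and -9.48 in tumor 41. Lsd1 ranked higher in both tumors at 976 sites (48.4%) and Gfi1 in both at 190 (9.42%), and the tumors disagreed at the rest. Intergenic distal peaks were much alike, with medians of -5.88 and -8.04, Lsd1 higher in both tumors at 45.8% and Gfi1 at 10.9%. At the TSS peaks the same difference was 4.42 in tumor 39 and -6.45 in tumor 41, so the tumors went opposite ways there. With 2 tumors, each of which gave both factors, the smallest p that an exact permutation test allows is above 0.05, and no test was run.

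The rank order of the sites was shared only in part between libraries. Across the 2017 sites the Spearman correlation of the scores was 0.41 between the Gfi1 replicates and 0.65 between the Lsd1 replicates, with the other pairs between 0.44 and 0.60. Intergenic distal peaks gave 0.50 to 0.73 and TSS peaks 0.71 to 0.85. These are descriptions across sites of 1 set of libraries, and sites are not replicates. They also share partners, since 160 Gfi1 replicate 2 peaks, 221 Lsd1 replicate 1 peaks and 181 Lsd1 replicate 2 peaks covered more than 1 site.

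The 10 sites of highest mean percentile lie in both coding and noncoding genes. The highest was in 9330198N18Rik, a noncoding RNA gene (chr2:30653919-30662054), with scores of 3100 in Gfi1 replicate 1, 1259 in Gfi1 replicate 2, 3100 in Lsd1 replicate 1 and 3100 in Lsd1 replicate 2. A site in intron 5 of Nfatc2, a transcription factor controlled by calcineurin, scored 2281, 1091, 2623 and 3100 in that order. In Vgll4, a cofactor of Tead proteins, the values were 2290, 1128, 2959 and 2807. At all 3 sites Gfi1 replicate 2 gave the lowest score, as the shorter list with the lower median did over the sites as a whole.

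The next sites included Arid1b and Igf1r. Arid1b codes for a subunit of the BAF chromatin remodeler, and its site in intron 13 (chr17:5319417-5326107) scored 1946, 1582, 2397 and 2284. Igf1r, the insulin-like growth factor receptor, had 1567, 1061, 2497 and 2289 in its second intron, which is 161 kb long. Tox2, Elmsan1 (a subunit of a histone deacetylase complex), Bahcc1 and the noncoding Gm26759 were also among the 10, with mean percentiles of 96.5, 94.8, 94.7 and 94.8. The window of Gm26759 held 37 CpG dinucleotides, where the other 9 held 2 to 9.

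The sites with the widest gap between the factors show how far the ranks can part. At Ampd3, the gene of an AMP deaminase, Gfi1 scored 59.0 and 94.2 in the 2 tumors and Lsd1 scored 1755 and 2796. The other 4 sites with Lsd1 far ahead were in Gramd2, Bcr, Nectin2 and Abcg1, with Gfi1 minus Lsd1 differences of mean percentile from -73.1 to -69.3. In the opposite direction the gap was narrower. At Creb3l2 the Gfi1 scores were 316 and 296 and the Lsd1 scores 61.6 and 115, a difference of 42.2 in mean percentile, and Rad54l2, Gm5737, Nfix and Zfp423 followed with 42.0 to 37.5. These sites were picked for the gap, so the values describe the extremes of the set. In Nfix the gap was wider in tumor 39, with percentiles of 72.5 for Gfi1 and 12.2 for Lsd1. In tumor 41 they were 93.8 and 76.9. Lsd1 scored 66.6 in tumor 39 against 816 in tumor 41.

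The DNA of the sites is measured independently of the scores. In the central 300 bp the intronic distal sites had a median of 53% G and C and 5 CpG dinucleotides, against 62.0% and 20 at TSS peaks and 53.3% and 6 at intergenic distal peaks. A CpG-rich window (over 50% G and C and an observed to expected CpG ratio above 0.6) was found at 79 sites (3.92%), against 60.8% of TSS peaks, 10.0% of intergenic distal peaks and 11.2% of intronic distal peaks that lacked a partner in some library. Interspersed or simple repeats covered on average 12.3% of the window, against 13.3% at intergenic distal peaks, 7.65% at TSS peaks, 13.6% over all Gfi1 replicate 1 peaks and 22.6% in those 3611 intronic peaks without all partners. Base composition rose locally at the sites, from 48.4% G and C at 2 to 3 kb from the peak middle to 52.4% in the central 600 bp, and CpG density from 12.7 to 19.3 per kb.

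**Figure D2:**
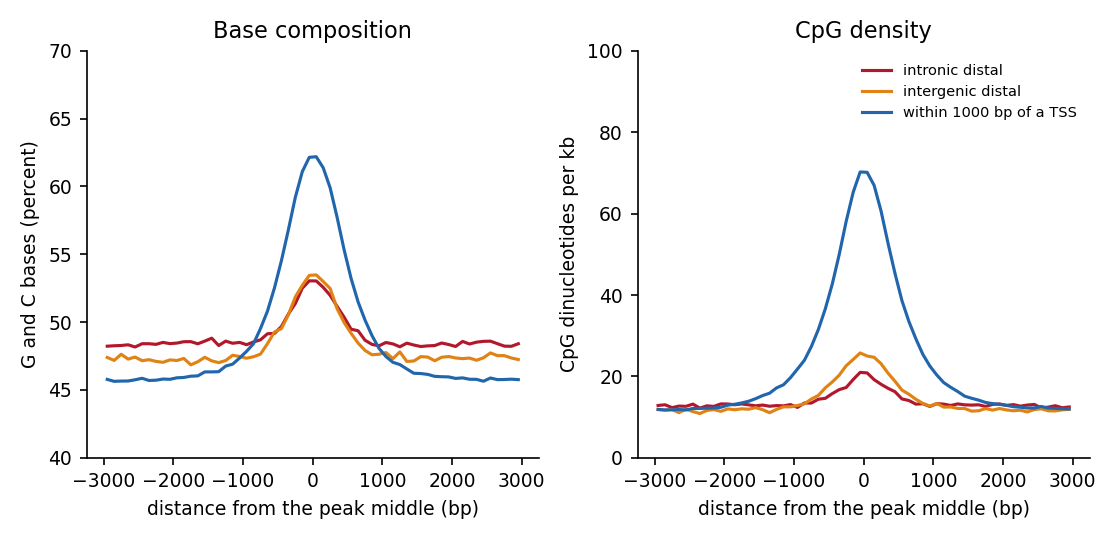
Percent of G and C bases (left) and CpG dinucleotides per kb (right) against the distance in bp from the middle of the Gfi1 replicate 1 peak, averaged over the peaks of each class in bins of 100 bp. The intronic distal sites rise to a low peak close to that of intergenic distal sites, from 12.7 to 19.3 CpG per kb, and far below TSS peaks, which average 65.2 in the central 600 bp.

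The Gfi1 word was rare in the centre of the sites. AATCANNGC, searched on both strands, was found at 44 of the 2017 sites, which is 2.18% (1.59 to 2.92), where 2.89% of all Gfi1 replicate 1 peaks had it. The share was 2.38% at TSS peaks, 3.54% (2.70 to 4.55) at intergenic distal peaks and 3.57% (2.99 to 4.23) at intronic peaks without all partners. The word was about as dense in the centre, 0.076 per kb over 300 bp, as at 2 to 3 kb from it, 0.087 per kb. It did not go with the score either, since over 5 equal groups of sites, from the lowest to the highest mean percentile, the share was 1.73%, 2.72%, 1.99%, 2.73% and 1.74%, each with an interval that holds the overall value. The short form AATCAC, which overlaps AATCANNGC in part, was at 8.38% of the sites and also less dense in the centre (0.293 per kb) than in the flanks (0.379 per kb). The midpoint of a peak stands in for its summit, which the lists do not give. With the window moved to the middle of the stretch that the 4 libraries share, AATCANNGC was at 2.97% of the sites.

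The word of the NFI factors was common. TTGGCA, on either strand, occurred in the central 300 bp of 514 sites, 25.5% (23.6 to 27.4), against 20.1% (18.2 to 22.2) of intergenic distal peaks, 17.9% (16.6 to 19.2) of intronic peaks without all partners, 15.3% of all Gfi1 replicate 1 peaks and 11.4% (10.86 to 11.98) of TSS peaks. The interval of the intronic distal sites lies above the others, but these intervals hold counting error only and are no test between classes. They treat sites as independent, although 47.3% of the sites lay in groups within 10 kb. The word was also concentrated at the middle of the sites, with 0.988 matches per kb in the centre and 0.549 per kb at 2 to 3 kb, a ratio of 1.80. The same ratio was 1.55 at intergenic distal peaks and 0.812 at TSS peaks. Across the same 5 groups the share ran from 28.2% in the lowest to 22.6% in the highest, with overlapping intervals.

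Several other words were more frequent, or less, at distal than at promoter peaks, with intronic and intergenic distal peaks close to each other. The homeobox core TAATTA was at 6.49% (5.46 to 7.66) of the intronic distal sites, 6.47% of intergenic distal peaks and 1.95% (1.71 to 2.20) of TSS peaks. The Sox word ACAATG was at 12.05% of the sites, 12.1% of intergenic distal peaks, 6.17% of TSS peaks and 8.27% of all Gfi1 replicate 1 peaks. The AP-1 word TGANTCA was at 9.47% of the sites and at 10.1%, 4.31% and 6.00% of those classes. These 3 words were not clearly concentrated in the centre of the sites. ACAATG was less dense there, 0.431 per kb, than at 2 to 3 kb, 0.503 per kb, a ratio of 0.858. For TAATTA the ratio was 1.10 and for TGANTCA it was 1.05. CCGGAAGT, the Ets word typical of CpG-rich promoters, was at 0.694% of the sites (0.380 to 1.16), 0.733% of intergenic distal peaks, 3.89% of TSS peaks and 1.79% of all. The E-box CAGNTG was at 63.7% (61.5 to 65.8), against 49.2% of TSS peaks, 61.0% of intergenic distal peaks and 58.4% of all. It was more frequent still, at 66.6% (65.0 to 68.1), at intronic peaks without all partners. At the sites it was 1.13 times as dense in the centre as in the flanks. CACGTG was at 8.43% (7.25 to 9.73), with an interval that overlaps that of TSS peaks, 7.20% (6.76 to 7.67). It was 1.51 times as dense in the centre as in the flanks, less than at intergenic distal peaks (1.81) and TSS peaks (1.94). This word holds a CpG, and CpG density at the sites rose too, from 12.7 per kb in the flanks to 19.3 in the central 600 bp. The part of that rise in the ratio was not tested. The groups differ in base composition, and its part in these shares was not tested. A match is a description of letters, and no binding by these other factors was measured.

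**Figure D3:**
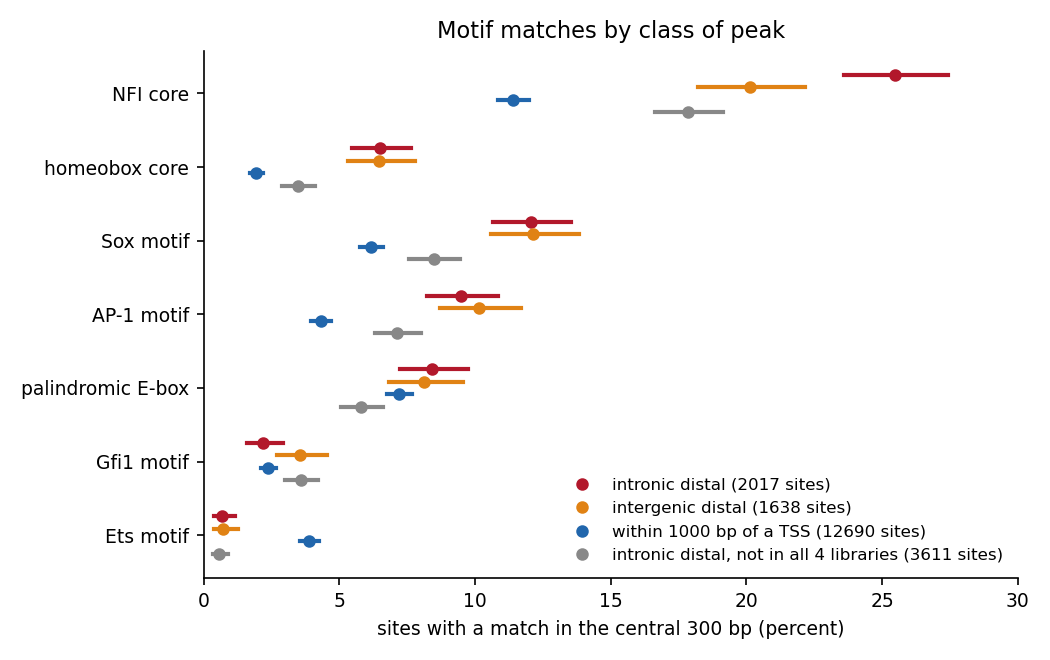
Percent of sites with at least 1 match in the central 300 bp (x axis) for 7 of the 17 words searched (y axis), in 4 classes of Gfi1 replicate 1 peak, with bars for exact 95% binomial intervals. The NFI core is found at 25.5% of intronic distal sites and 11.4% of TSS peaks, and the Gfi1 motif at 2.18% and 2.38%.

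Some of the sites coincide with enhancers that were tested in mice. RefSeq lists elements from the VISTA project, in which a DNA segment drives a reporter in transgenic embryos. In all, 38 sites (1.88%, 1.34 to 2.58) overlapped an enhancer in RefSeq's list, against 0.641% of all Gfi1 replicate 1 peaks. The share was 1.95% at intergenic distal peaks, 0.914% (0.630 to 1.28) at intronic peaks without all partners and 0.292% (0.205 to 0.402) at TSS peaks. The tested segments were not chosen at random, and how their choice bears on these shares was not tested. They overlapped 37 elements, 36 of them from VISTA, and 9 of these (25%) were active in the hindbrain, from which the cerebellum grows, close to the 22.6% of all 620 VISTA records. The record for such an element in Casz1, a zinc finger factor, gives activity in the hindbrain and cranial nerve. The site over it had Gfi1 scores of 1119 in tumor 39 and 612 in tumor 41, with Lsd1 at 1179 and 903. The element in Phc2, a Polycomb gene, was active in hindbrain, midbrain, forebrain, neural tube, eye and trigeminal ganglion. Gfi1 there was at 183 and 188 and Lsd1 at 198 and 288. At Bach2 Gfi1 had 180 and 473 and Lsd1 500 and 567. Casz1 was the only site of these 3 in the upper 20% of all but 1 library, and Phc2 stood near the middle of every list.

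The sites were spread over 1030 host genes, a host being the shortest coding gene around a site or, without one, the shortest gene. There was 1 site in 651 of them and 2 or more in 379, and the 78 hosts with at least 5 sites held 602 sites in all. Protein-coding genes hosted 1846 sites (91.5%), and genes annotated as lincRNA hosted 100. Of the 12411 protein-coding genes that could hold a site, with at least 1000 bp of intron 5 kb or more from every TSS, 957 had 1 inside them, 7.71%. Length matters to this share. Among 4 equal classes of genes by the bases that could hold a site, 1.22% held 1 in the shortest, 4.35% and 8.90% in the middle ones and 16.4% in the longest. Host genes had a median length of 83.7 kb, against 39.1 kb for the protein-coding genes that could hold a site. In bases that could hold a site, protein-coding hosts had a median of 55.5 kb, against 18.1 kb for those genes.

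Arid1b held the most sites, 29 over 353 kb, with mean percentiles from 14.9 to 96.5. Gse1, whose product is found in CoREST complexes, followed with 27 sites between 9.92 and 350 kb from its start and a median mean percentile of 64.1. The noncoding gene 2610035D17Rik held 17, of which 12 were in its first intron. Msi2, an RNA-binding protein of neural stem cells, held 14, and all lay between 63.4 and 206 kb of a gene of 379 kb. Ksr1, a scaffold of the Raf and MEK kinases, and Sh3pxd2a held 13 each, Casz1 held 12, and Auh, Bcl11b, Macrod1 and Zmiz1 held 11 each. The readthrough gene model Gm20388, 4435 kb long, had 24 sites with no other coding host. Of the 71 sites inside it, 19 lie in no other gene and count as intronic through this model only, and without them 1998 sites remain. It is left out of the plot of hosts.

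**Figure D4:**
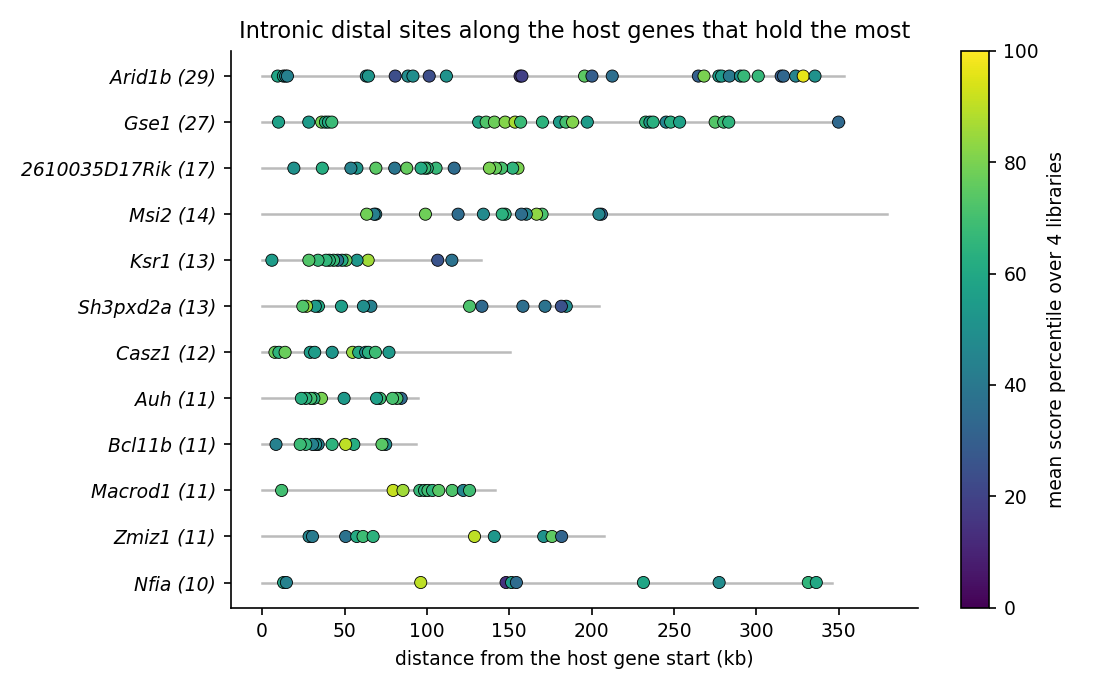
Distance of each intronic distal site from the start of its host gene in kb (x axis) for the 12 host genes with the most sites, leaving out Gm20388 (y axis, number of sites in brackets). Grey lines are gene lengths and colour is the mean score percentile over the 4 libraries. Sites crowd in parts of Ksr1 and Macrod1 and run the length of Arid1b and Gse1.

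Many of the sites lay close to one another. When sites within 10 kb were joined they formed 1400 groups, of which 1062 were single sites and 338 held 2 or more, with 47.3% of the sites. Groups of 4 or more numbered 68 and took in 364 sites. The largest had 10 sites each, over 40.1 kb in Ksr1, 51.9 kb in Macrod1 and 64.4 kb in 2610035D17Rik. Casz1 and Cdc42bpb had groups of 9, over 49.1 kb and 40.7 kb, and Arid1b had 1 of 8 over 37.7 kb. Sites of a group share chromatin and often a partner peak, so they are not independent.

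By intron order, first introns held more of the sites than their share of the bases, while by position along the gene the sites did not gather at the front. The first intron of the longest transcript held 703 of the 1969 sites that fell in one of its introns, 35.7% (33.6 to 37.9), while first introns make up 29.2% of the bases that could hold a site. The second intron held 22.4% against 19.5% of the bases, and later introns held 41.8% (39.7 to 44.1) against 51.3%. The median position was 49.6% of the way along the host, and in 5 equal stretches from start to end lay 14.1%, 24.6%, 22.7%, 21.5% and 17.2% of the sites. The rule keeps 5 kb around every TSS free of sites, and its part in these shares was not tested. The nearest TSS of any gene was a median of 13268 bp away, with the closest at 5003 bp and the farthest at 285233 bp. Between 5 and 10 kb lay 35.1% of the sites, and 8.92% were more than 50 kb away. Just inside the limit were sites of E130114P18Rik, Mxi1 and Slc20a2 at 5003, 5007 and 5012 bp, and just outside were peaks of Pgs1 and Syne3 at 4999 and 4995 bp.

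Host genes tended to have both factors at their promoters too. Of the 916 protein-coding hosts, 773 had a peak found in all 4 libraries within 1000 bp of a TSS of their own, 84.4% (81.9 to 86.7). Of the 11454 genes that could hold a site and had none, 56.3% (55.4 to 57.2) had such a peak. The gap was there in every length class, with 86.8% against 56.1% in the shortest, 77.8% against 59.6% and 77.9% against 58.0% in the middle ones and 85.4% against 50.8% in the longest. Hosts with at least 2 sites had a promoter peak in 92.4% (89.1 to 94.9). Seen from the promoter, 24.8% of the longest genes with a promoter peak held an intronic distal site, against 5.48% of those without. Open chromatin and transcription of these genes were not analysed here, and their part in the difference was not tested.

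**Figure D5:**
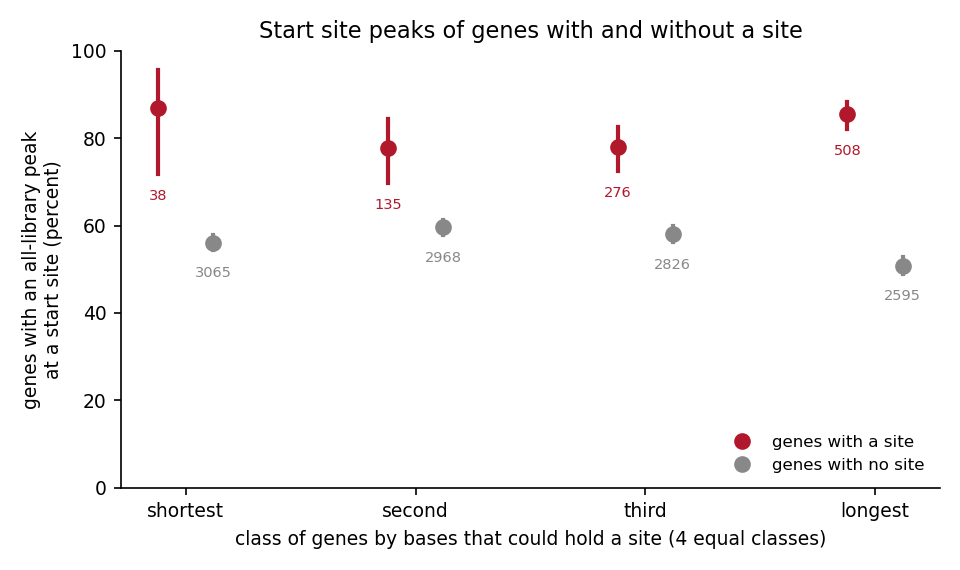
Percent of protein-coding genes with a peak of all 4 libraries within 1000 bp of a start site (y axis) for genes with and without an intronic distal site, in 4 equal classes by the bases that could hold a site (x axis). Bars are exact 95% binomial intervals and small figures are numbers of genes. Genes with a site lie between 77.8% and 86.8% and those without between 50.8% and 59.6%.

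The genes were also read by function, with 11 lists of 399 genes in all. The share of a list that holds a site is set here beside the 7.71% of all protein-coding genes that could, and, since many of these genes are long, beside the 16.4% of the longest class. A list of few genes gives a wide interval, and lists were chosen with results of these data known.

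Transcription factors of neuronal fate and differentiation had a site in 12 of the 39 genes that could hold 1, 30.8% (17.0 to 47.6), with 48 sites. In the longest class 11 of 31 did (35.5%). Nfix and Nfia, of the NFI family of glial and neuronal differentiation, had the highest sites, while Nfib of the same family was among the lowest, with a mean percentile of 43.7. In tumors 39 and 41 in turn, as for all pairs of scores from here on, the highest site of Nfix had Gfi1 scores of 2255 and 589 and Lsd1 scores of 1716 and 2717. Bcl11b, a zinc finger factor of projection neurons, held 11 sites, the highest with 1064 and 783 for Gfi1 and 1456 and 1841 for Lsd1. Foxp4, Cux2 and Foxp1 were lower, with mean percentiles of 58.9, 58.5 and 56.4, and Rora was the lowest with 39.4.

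Nfia held 10 sites along 346 kb. The strongest, at 96.2 kb from the gene start (chr4:97867906-97870031), had Gfi1 scores of 1429 and 957 and Lsd1 scores of 1285 and 1296, and is the site whose sequence is printed above. It was in the upper 20% in all 4 libraries. The others had mean percentiles from 14.1 to 65.6, and the weakest of them had 67.1, 81.6, 72.9 and 50.2. All of these 9 were below the upper 20% in each library. Nfib held 1 site, with 266, 190, 78.6 and 157, and no promoter peak in all libraries, where Nfia had 1. Several other genes that the study names in this setting held no site. Dcc (1080 kb), Bmpr1a (70.2 kb), Lrig3 (23.9 kb) and Smad4 (18.5 kb) had intron bases that could hold 1, while Ptf1a, Sox11, Neurog2, Zic1, Barhl1, Neurod1 and Fbxo5 had none. To lack a site here is not to lack both factors. Bmpr1a, Lrig3, Smad4, Neurog2, Barhl1 and Fbxo5 had a promoter peak in all libraries, and Dcc, Ptf1a, Sox11, Zic1 and Neurod1 did not.

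Chromatin regulators and corepressors had a site in 13 of 46 genes, 28.3% (16.0 to 43.5), with 57 sites, 29 of them in Arid1b. In the longest class it was 10 of 23 (43.5%). Below Arid1b in this list, Zmynd8, a reader of acetylated histones, had 1533 and 941 for Gfi1 and 1242 and 1896 for Lsd1 at its highest site. Kdm2b, a demethylase of histone H3 lysine 36 and part of a Polycomb complex, had 504 and 1079 for Gfi1 and 1032 and 1574 for Lsd1. Gfi1 was thus in the upper 20% at Kdm2b in tumor 41 and not in tumor 39. At the low end stood Phf21a, a subunit of the Lsd1 complex itself, with 73.8 and 71.0 for Gfi1 and 91.1 and 76.5 for Lsd1.

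Genes of BMP and TGF-beta signalling had a site in 7 of 25, 28.0% (12.1 to 49.4). The 3 with the highest sites were Ski, Smad6 and Smurf1. Ski, a corepressor of Smad proteins, had 1011 and 473 for Gfi1 and 1201 and 1400 for Lsd1. Smad6, an inhibitory Smad, had 693 and 471 for Gfi1 and 1014 and 1237 for Lsd1. Smurf1, a ubiquitin ligase that targets Smads and receptors, had 144 and 162 for Gfi1 and 657 and 228 for Lsd1, and stood well below the former pair. Tgfbr3, Bmp7, Smad9 and Smad3 followed with mean percentiles of 53.6 to 46.9.

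Neural stem cell and glial genes had a site in 5 of 21 (23.8%, 8.22 to 47.2), led by Msi2 with 858 and 572 for Gfi1 and 1129 and 1033 for Lsd1. Receptor kinase and growth factor genes had 8 of 35 (22.9%, 10.4 to 40.1), and 8 of their 18 sites were in Fgfr2, whose gene model has 1966 kb that could hold a site. Below Igf1r in this list, Lrig1, a negative regulator of the EGF receptor, had 598 and 298 for Gfi1 and 772 and 530 for Lsd1. Its site overlapped a VISTA element active in the midbrain, facial mesenchyme, branchial arch, nose and limb. Cell cycle and p53 genes had 4 of 20 (interval 5.73% to 43.7%). Mxi1, an antagonist of Myc in the Max network, held 6 sites, the highest with 326 and 405 for Gfi1 and 630 and 552 for Lsd1.

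Axon guidance and adhesion genes had a site in 12 of 64, 18.8% (10.1 to 30.5). Nearly all of these are long, and in the longest class the share was 8 of 57 (14.0%), close to the 16.4% of all long genes. Per base that could hold a site they had 0.797 sites per Mb, against 2.59 over the genome. Ptprf, a receptor phosphatase of axons, was the highest with 866 and 563 for Gfi1 and 588 and 997 for Lsd1, and Ephb2 and Nrp2 came next. The single sites of Slit1, Efna5 and Sema4d were weak, with mean percentiles of 30.6, 25.4 and 18.7.

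The remaining signalling lists had few sites. Notch signalling had 2 of 13 genes (15.4%, 1.92 to 45.4). In Maml3, a Notch coactivator, Gfi1 had 846 and 659 and Lsd1 995 and 626. In Notch1 Gfi1 had 134 and 156 and Lsd1 1692 and 3100, so that Lsd1 was near the top of both lists while Gfi1 stayed in the middle, at the site whose sequence holds AATCACAGC. A neighbouring Notch1 site (chr2:26496641-26497803) had the same scores in Gfi1 replicate 2 and in both Lsd1 libraries, and 63.3 in Gfi1 replicate 1. The Lsd1 scores thus cannot be assigned to either site alone. Sonic hedgehog signalling had 2 of 13, with Gli2 at 451 and 209 for Gfi1 and 440 and 258 for Lsd1 and Ptch1 lower. Wnt signalling had 2 of 26 (7.69%), Bcl9l and Nkd1. Immune cell genes, a list of another cell type that the tumor could hold, had 2 of 17 (11.8%, 1.46 to 36.4), Ikzf3 and Runx1.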

How the data were processed

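Gfi1 and Lsd1 ChIP-seq of 2 MG tumors was read from 4 deposited peak lists, 1 per library. Per the study's methods, the authors aligned reads with BWA (version 0.6.2 in the submitters' processing notes) to mm10, merged files with Picard, removed duplicate reads and called peaks with MACS against input, each library separately. Each peak has a score by the authors, whose definition is not given in the sources used here, and no read counts are listed, so depth per peak is unknown. No peak lay beyond the end of its chromosome in the GRCm38 reference.

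Scores were turned into percentiles within a library, ties sharing the mean rank. Where several peaks of a library overlapped a site, the highest was used. TSSs (132629), genes and exons came from GENCODE M21, where the authors used M9. Motifs (17) were searched on both strands within 300 bp at the peak midpoint, and enhancers were taken from RefSeq. Intervals are exact binomial (Clopper-Pearson, 95%). No test between groups was run, since an exact permutation test over 2 tumors could not pass. Labels do not say whether the tumors came from separate cell preparations. The named sites were the 10 of highest mean percentile, the highest site of the 3 leading genes per list, the 5 hosts with most sites, those of genes the study names, the 5 widest gaps each way between the factors and 5 with AATCACNGC. Results for a few genes that this rule names are not reported here. Other genes named, such as those with REST or NFI sequences, those at tested enhancers and those low in a list, were chosen after their values were seen. Members and lists were chosen with earlier results of these data known. The site rule, motif search and interval were tested on simulated data. Python 3.11.15, numpy 2.4.6, scipy 1.17.1 and matplotlib 3.10.9 were used.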

Additional observations from a re-analysis of the deposited data

How the results depend on the processing

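No paired analysis was possible because no result comes from a test, and the differences within tumors are given as values only. The number of sites was 1309 with a TSS distance of 10 kb, and 2168 to 2829 with a library left out. The share with a Gfi1 motif was 1.59% in 200 bp, 4.16% in 500 bp, 16.0% over the whole peak, 0.347% for AATCACNGC and 8.38% for AATCAC. It was 2.97% with the window at the middle of the shared stretch, an alternative chosen after seeing the data, and 2.40% to 3.13% with a library left out, the highest without Gfi1 replicate 1. In the upper 10% of all lists stood 0.545% of the sites and in the upper 40% 13.7%, and 1.87% to 2.61% in the upper 20% with a library left out. Hosts with a promoter peak were 83.2% to 87.2% with a library left out. Counting the first intron of any transcript gave 49.7%, and 34.9% to 35.7% lay in the first intron with a library left out. With another library left out, the median percentile was 45.03 to 50.1 for Gfi1 replicate 1, 38.6 to 44.4 for Gfi1 replicate 2, 54.3 to 57.6 for Lsd1 replicate 1 and 52.6 to 56.4 for Lsd1 replicate 2. Leaving out a library, as such, admits peaks that this library lacks. The other alternatives, 38 values in all with those left out, stayed within 1.5 times the count, the interval or the SD between tumors. Groups of 2 samples are too small to look for a sample far from the others. Without read counts, a missing peak cannot be told from one just under the calling limit.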

Other observations

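The sites were unevenly spread over chromosomes. Per Mb of intron at least 5 kb from every TSS, chromosome 11 had 4.68, chromosome 8 had 4.604, chromosome 4 had 4.56 and chromosome 17 had 4.18, and over the genome it was 2.59. As a share of the Gfi1 replicate 1 peaks of the chromosome, chromosomes 11 and 17 were near the 5.48% of the genome, with 5.48% and 5.71%. Chromosomes 8 and 4 were above it, with 8.59% and 7.25%. Chromosome 8 also carries the gene model Gm20388, which has 71 sites inside it. The X chromosome had 2 sites in 37.0 Mb, 0.054 per Mb, although its peaks numbered 765 and 285 in the Gfi1 lists and 432 in each Lsd1 list. Intergenic distal peaks found in all libraries numbered 15 on the X chromosome.

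Intronic distal Gfi1 peaks of tumor 39 that were absent from 1 library only were mostly absent from Gfi1 replicate 2, the shortest list. That library alone was missing at 812 of them, Lsd1 replicate 1 at 161 and Lsd1 replicate 2 at 151. Of the 5628 intronic distal peaks with any number of libraries, 2017 were in all 4 (35.8%), 1124 in 3, 950 in 2 and 1537 in Gfi1 replicate 1 only. The share in all 4 libraries was 68.0% for peaks at TSSs and 32.4% for intergenic ones.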
